A study of Mus musculus with 12 samples.

Results

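Unsorted mouse bone marrow (BM) cultures that had received a retrovirus expressing Cre recombinase were compared with BM cultures that had received an empty retrovirus. These were 6 of the 12 arrays of the study, 3 labelled BM Cre and 3 labelled BM control, and the groups were taken from the sample titles. The measurements were the genes with a probe whose detection p-value was under 0.05 on at least 3 of these 6 arrays, which were 9729 of the 19053 genes with a probe. The other 6 arrays, of CD34+ cells sorted from such cultures, entered only the closing test of whether the Cre effect differed between the populations.

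Every sample, controls included, came from 3-months old Bcor Fl/Y marrow. In this allele loxP sites lie on either side of exons 9 and 10 of Bcor, so that Cre can remove both exons and shift the reading frame. The cells were cultured with stem cell factor (SCF), IL6 and IL-3, selected with puromycin after transduction, and harvested as mononuclear cells after Ficoll purification. Arrays were labelled repeats 1 to 3 in each arm, without saying whether these were separate animals or cultures, so the p-values measure only the spread between these samples, which may be technical. No sample analysed here carried Cre without the floxed allele, so an effect of the Cre virus itself and an effect of losing the exons cannot be told apart.

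BCOR is a corepressor and a subunit of PRC1.1, a variant Polycomb repressive complex that contains PCGF1 and the demethylase KDM2B and marks unmethylated CpG-rich promoters by ubiquitinating histone H2A. IL-3 and SCF support the growth of myeloid progenitors, mast cells and basophils in culture. Granulocytes fill their granules in stages: myeloperoxidase and the serine proteases of primary granules are made first, and lactoferrin, lipocalin and other contents of secondary granules follow once the transcription factor C/EBP epsilon is present.

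Promoters of 9 genes are shown as examples from 3 groups described below: primary granule genes (Mpo, Prtn3, Elane), secondary granule genes (Ltf, Lcn2, Ngp) and genes of the Atf4 stress response (Nupr1, Chac1, Slc7a11). Each is the 250 bases before the gene's start on the gene's own strand, from RefSeq on GRCm38.p6. Capitals mark a match on either strand to GAGGAA, a core bound by PU.1 and other Ets factors, in the primary granule genes, to TTGCNNAA, a pattern of C/EBP sites, in the secondary granule genes, and to TGATGNAA, the composite C/EBP and Atf4 element, in the stress genes.
Mpo: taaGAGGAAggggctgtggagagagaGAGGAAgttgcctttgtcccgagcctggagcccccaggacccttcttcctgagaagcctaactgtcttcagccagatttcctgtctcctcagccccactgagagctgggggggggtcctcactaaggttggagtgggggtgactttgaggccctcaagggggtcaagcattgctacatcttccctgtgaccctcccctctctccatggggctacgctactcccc
Prtn3: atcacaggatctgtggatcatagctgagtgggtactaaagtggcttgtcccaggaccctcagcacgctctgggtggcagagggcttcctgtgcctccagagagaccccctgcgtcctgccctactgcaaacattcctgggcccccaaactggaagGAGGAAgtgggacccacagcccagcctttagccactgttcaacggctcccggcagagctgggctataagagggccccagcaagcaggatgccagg
Elane: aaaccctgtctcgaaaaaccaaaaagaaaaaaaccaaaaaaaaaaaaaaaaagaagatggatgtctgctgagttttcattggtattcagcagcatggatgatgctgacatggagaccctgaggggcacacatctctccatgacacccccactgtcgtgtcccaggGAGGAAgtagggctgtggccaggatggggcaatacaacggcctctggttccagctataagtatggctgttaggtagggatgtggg
Ltf: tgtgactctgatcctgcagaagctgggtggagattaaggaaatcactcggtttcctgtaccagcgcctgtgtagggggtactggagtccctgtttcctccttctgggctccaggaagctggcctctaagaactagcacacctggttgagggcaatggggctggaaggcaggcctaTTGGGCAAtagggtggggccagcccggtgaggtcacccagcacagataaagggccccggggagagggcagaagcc
Lcn2: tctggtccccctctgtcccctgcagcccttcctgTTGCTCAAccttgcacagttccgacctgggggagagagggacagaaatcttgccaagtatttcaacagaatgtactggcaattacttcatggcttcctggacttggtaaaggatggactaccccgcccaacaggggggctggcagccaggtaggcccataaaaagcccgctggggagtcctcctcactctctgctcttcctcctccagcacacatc
Ngp: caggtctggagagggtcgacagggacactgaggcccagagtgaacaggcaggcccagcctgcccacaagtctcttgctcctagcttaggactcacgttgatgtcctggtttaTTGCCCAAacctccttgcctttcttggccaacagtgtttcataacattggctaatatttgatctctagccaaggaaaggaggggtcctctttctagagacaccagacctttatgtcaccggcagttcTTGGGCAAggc
Nupr1: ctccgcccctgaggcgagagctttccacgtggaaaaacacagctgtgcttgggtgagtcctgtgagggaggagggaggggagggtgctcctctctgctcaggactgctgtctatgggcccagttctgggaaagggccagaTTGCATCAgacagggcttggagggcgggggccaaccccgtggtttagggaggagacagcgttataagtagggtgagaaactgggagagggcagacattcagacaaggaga
Chac1: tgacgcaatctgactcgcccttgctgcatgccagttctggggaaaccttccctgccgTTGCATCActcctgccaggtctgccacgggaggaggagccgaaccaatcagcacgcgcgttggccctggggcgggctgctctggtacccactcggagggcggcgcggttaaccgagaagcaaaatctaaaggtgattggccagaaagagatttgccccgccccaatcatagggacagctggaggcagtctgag
Slc7a11: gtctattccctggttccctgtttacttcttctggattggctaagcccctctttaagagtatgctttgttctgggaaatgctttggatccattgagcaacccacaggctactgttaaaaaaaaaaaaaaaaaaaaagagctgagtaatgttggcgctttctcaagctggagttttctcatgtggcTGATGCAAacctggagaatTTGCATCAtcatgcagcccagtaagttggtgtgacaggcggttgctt
The windows lie at chr11:87793534-87793783 on the plus strand for Mpo, chr10:79879417-79879666 on the plus strand for Prtn3, chr10:79886062-79886311 on the plus strand for Elane, chr9:111019042-111019291 on the plus strand for Ltf, chr2:32387740-32387989 on the minus strand for Lcn2, chr9:110419558-110419807 on the plus strand for Ngp, chr7:126625471-126625720 on the minus strand for Nupr1, chr2:119350992-119351241 on the plus strand for Chac1 and chr3:50443614-50443863 on the minus strand for Slc7a11. Prtn3 and Elane are neighbours in one protease gene cluster, and their GAGGAA matches began 95 and 85 bases before the start. The motifs were searched apart, and matches to different motifs that overlap were both kept. Each promoter shown held the motif marked for its group, while other promoters of each group held none, so those shown do not represent their groups.

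Promoters of that length were on file for 7999 of the genes tested. GAGGAA was present in 26.0% of them, in 27.6% of the genes that rose and in 26.4% of those that fell, and 5 of 9 primary granule and 9 of 16 secondary and tertiary granule promoters held it. TTGCNNAA was present in 9.29% of the promoters of genes tested, in 12.7% of those that rose and in 8.13% of those that fell. No primary granule promoter held it, while 6 of 16 secondary and tertiary granule promoters did (Adam8, Lcn2, Ltf, Mmp8, Ngp and Retnlg). TGATGNAA was present in 2.53% of the promoters of genes tested, in 3.48% of those that rose and in 2.97% of those that fell. On the Atf4 list 8 of 28 promoters held it (Aars, Asns, Atf3, Chac1, Gars, Nupr1, Slc7a11 and Tars). Of these 8 genes Nupr1 fell, Slc7a11 rose and the others were not called. The other genes of the list that fell, Trib3 and Slc6a9 among them, held no match. These matches describe letters in a window; no binding was measured.

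Illumina arrays of 45281 probes were used, and 37.5% to 39.2% of the probes were detected on each of the 6. The first principal component held 72.9% of the variance and separated the arms. The second, with 14.6%, separated Cre 3 (score −45.0) from Cre 2 (30.0) and the rest. Correlations were 0.987 to 0.989 between control arrays, 0.969 to 0.990 between Cre arrays and 0.920 to 0.945 between the arms. Levels below are log2 normalised intensities, listed for repeats 1, 2 and 3, and differences are Cre minus control on the same scale ± SE, with n = 3 per arm and limma's moderated test adjusted by Benjamini-Hochberg over all probes kept.

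At an adjusted p of 0.05, 1101 genes rose (11.3% of those measured) and 1097 fell (11.3%), which together were 2198 genes (22.6%). The arms overlapped in 1 of these 2198. In 1750 genes (18.0%) every Cre array lay above every control array, and in 2335 (24.0%) every Cre array lay below. The counts were alike but the sizes were not. Fitted rises exceeded 1 log2 unit in 682 genes and 4 units in 81, whereas fitted falls exceeded 1 unit in 376 genes and 4 units in 1, the mast cell receptor gene Mrgprb2. The median difference was 1.23 among genes that rose, −0.82 among genes that fell and −0.07 over all genes. No control array detected 254 of the genes that rose and no Cre array 45 of those that fell, and the sizes of these are bounds. With each at its bound, 618 rises and 365 falls exceeded 1 unit, 68 rises exceeded 4 units, and the medians were 1.12 and −0.81. Without Cre 3 the count went up to 3545, and without one of the others it went down to between 1310 and 1670. With the repeat number as a block the count was 2878. By the authors' own values, 513 genes passed, 333 up and 180 down, a share of rises of 64.9% against 50.1% here. Each gene named below as changed kept its call with each of the 6 arrays left out in turn unless stated otherwise.

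The results below rest on the scanner's signals, and the authors' own processed values disagree with them for many of the genes called, in both directions. By the authors' values 333 genes rose and 180 fell, against 1101 and 1097 here. In those values 303 of the 1101 genes that rose stood at the lowest entry, 24, on all 6 BM arrays, although the scanner detected each on all 3 Cre arrays, and so did 33 of the genes that fell. Mpo, Prtn3, Cebpe, Hoxa7, Ltf, Lcn2, S100a8, Epx and Prg3 were among the 303. Elane was not, and rose by 7.75 there. Of the 6807 probes with a scanner signal above 500 on every BM Cre array, 83 stood at 24 on every CD34+ array, and 78 of these stood at 24 on every BM array too, against 26 of the other 6724. The method behind those values is not given in the sources used here, and why the tables differ was not tested. Of 144 genes named here that passed, Bcor not counted, 99 had no call by the authors' values. The count of rises was smaller there in 37 of the 40 lists with a rise, and 0 in 15. The count of falls was smaller in 25 of the 29 lists with a fall, and 0 in 18. No fall on any list stood at 24 on all 6 BM arrays.

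**Figure D1:**
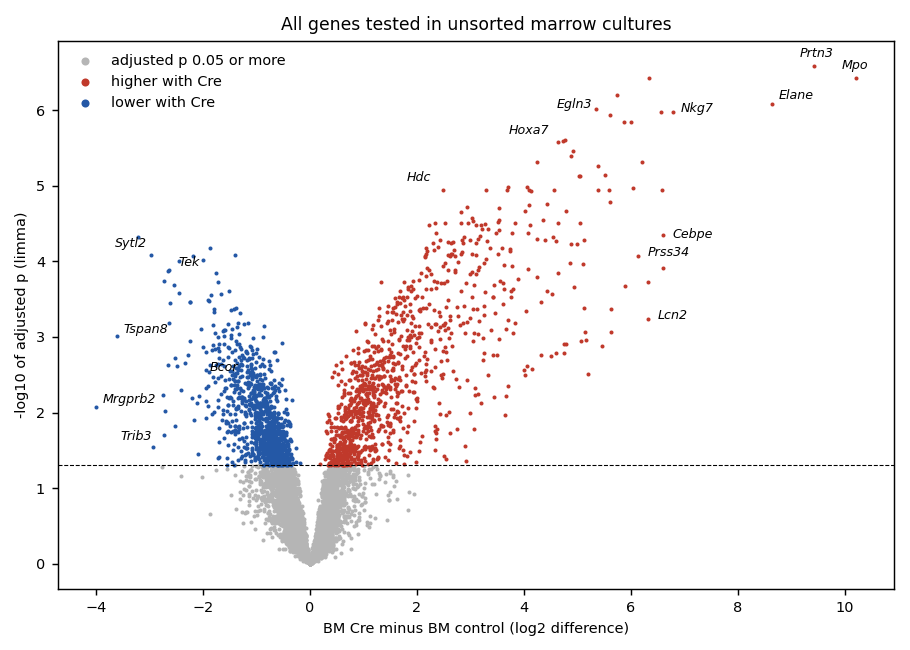
Log2 difference, Cre minus control, of each of the 9729 genes (horizontal) against −log10 of its adjusted p (vertical), with called genes coloured by direction. Rises reach past 10 log2 units, while a single fall passes 4.

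Bcor itself fell. Bcor stood at 9.78, 10.11 and 10.12 on controls 1 to 3 and at 8.69, 8.82 and 9.10 on Cre 1 to 3. The difference was −1.13 ± 0.17 (adjusted p 0.00317), so 45.6% of the control signal remained, and a second Bcor probe gave −1.24 ± 0.19. No Cre array overlapped a control array. Whether either probe lies within the deleted exons is not known from the files. The fall is therefore one of probe signal, and measures neither excision nor the total Bcor RNA. By its brightest probe per gene, the PRC1.1 list had Bcor as the only call among 12 measured members, with a median difference of 0.03. Kdm2b, which recruits the complex to CpG islands, differed by 0.45 ± 0.15 (adjusted p 0.0745), while a dimmer Kdm2b probe, undetected in controls, was called at 1.15-fold or more (adjusted p 0.0321) and another gave −0.34 (adjusted p 0.233). Pcgf1, the subunit that defines the complex, differed by −0.31 ± 0.14 (adjusted p 0.142).

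Genes of primary granule contents rose, Mpo by 10.21 log2 units from controls of which 1 detected it, and Prtn3 and Elane by at least 8.67 and 8.15 units from controls that detected neither. Of the 12 genes listed, 10 were measured, 6 rose and 1 fell, with a median difference of 3.93 (3 and 0 by the authors' values). Mpo encodes myeloperoxidase, the enzyme that makes hypochlorous acid. Control arrays gave Mpo levels of 4.63, 5.02 and 5.65, and Cre arrays gave 15.35, 15.25 and 15.33. One control array detected it, and the difference was 10.21 ± 0.24 (adjusted p 3.72e-07). Its 3 other probes rose by 7.42 to 10.18. Prtn3 encodes proteinase 3, a serine protease of the same granules. Prtn3 measured 4.56, 4.82 and 4.73 on the control arrays and 14.43, 14.08 and 13.85 on the Cre arrays, all above the controls. Elane encodes neutrophil elastase. The Elane level was 4.87, 4.77 and 5.29 in controls and 14.06, 13.37 and 13.37 with Cre, without overlap. No control array detected either protease gene, which puts the rise at 407-fold or more for Prtn3 and at 283-fold or more for Elane, taken against the lowest detected signal on each control array. Nkg7, a granule membrane protein of cytotoxic and myeloid cells, was at least 77.5-fold higher (adjusted p 1.05e-06).

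Ctsg, the gene of cathepsin G, was already expressed in the control cultures, unlike Prtn3 and Elane. Levels of Ctsg were 12.71, 11.92 and 12.09 on the control arrays and 14.74, 14.66 and 14.74 on the Cre arrays. It rose by 2.48 ± 0.19, with all Cre arrays above all controls. Srgn, the proteoglycan core that packs proteases into granules, stood at 14.18, 14.09 and 14.02 in controls and at 13.93, 13.85 and 14.13 with Cre, and the arms overlapped (difference −0.12 ± 0.10, adjusted p 0.405). Serpinb1a, an inhibitor of these proteases, fell by 0.60 ± 0.13 on the log2 scale (adjusted p 0.0173). It missed the threshold without control 1 at 0.0631 or control 2 at 0.0683 (each an adjusted p). Cst7, a cystatin of myeloid granules, gave −0.35 ± 0.11 (adjusted p 0.0613, 0.0112 without Cre 3 and 0.0418 with the repeat block). In bulk RNA, more cells of a type and more RNA per cell cannot be told apart, here and in every group below.

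Secondary and tertiary granule genes moved the same way. Of 22 listed, 19 were measured, 17 rose and 1 fell, and the median difference was 4.01, or 3.94 with undetected genes at their bounds. By the authors' values 3 rose and 1 fell, and 14 of the 17 stood at 24 throughout. Ltf encodes lactoferrin, an iron-binding protein of secondary granules. Ltf stood at 6.45, 7.95 and 8.37 on controls 1 to 3 and at 13.63, 13.76 and 12.24 on Cre 1 to 3. Lcn2 encodes lipocalin 2, which binds bacterial siderophores. Control arrays gave Lcn2 levels of 5.49, 7.73 and 8.41, and Cre arrays gave 13.83, 13.70 and 13.06. In both genes control 1 was the lowest array and Cre 3 the lowest of the Cre arrays, and the arms stayed apart (differences 5.62 ± 0.55 and 6.32 ± 0.66, adjusted p 0.000424 and 0.000586). Ngp, a cathelin-related granule protein, rose by 6.04 ± 0.27. Camp, the cathelicidin gene, stood at 5.02, 6.58 and 7.15 in controls, where 2 arrays detected it, and at 12.38, 12.34 and 11.66 with Cre. Pglyrp1, a peptidoglycan recognition protein, was steady within each arm. Pglyrp1 measured 7.46, 7.61 and 7.94 on the control arrays and 13.40, 13.40 and 13.42 on the Cre arrays, all above the controls. Hp, the haptoglobin gene, was undetected in controls and at least 39.5-fold higher. Cd33, a sialic acid receptor placed on this list, fell by 1.03 ± 0.17 on the log2 scale (adjusted p 0.00475). Across the list, relative levels on the control arrays were −0.35, 0.08 and 0.28, and on the Cre arrays 3.77, 3.78 and 3.16.

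**Figure D2:**
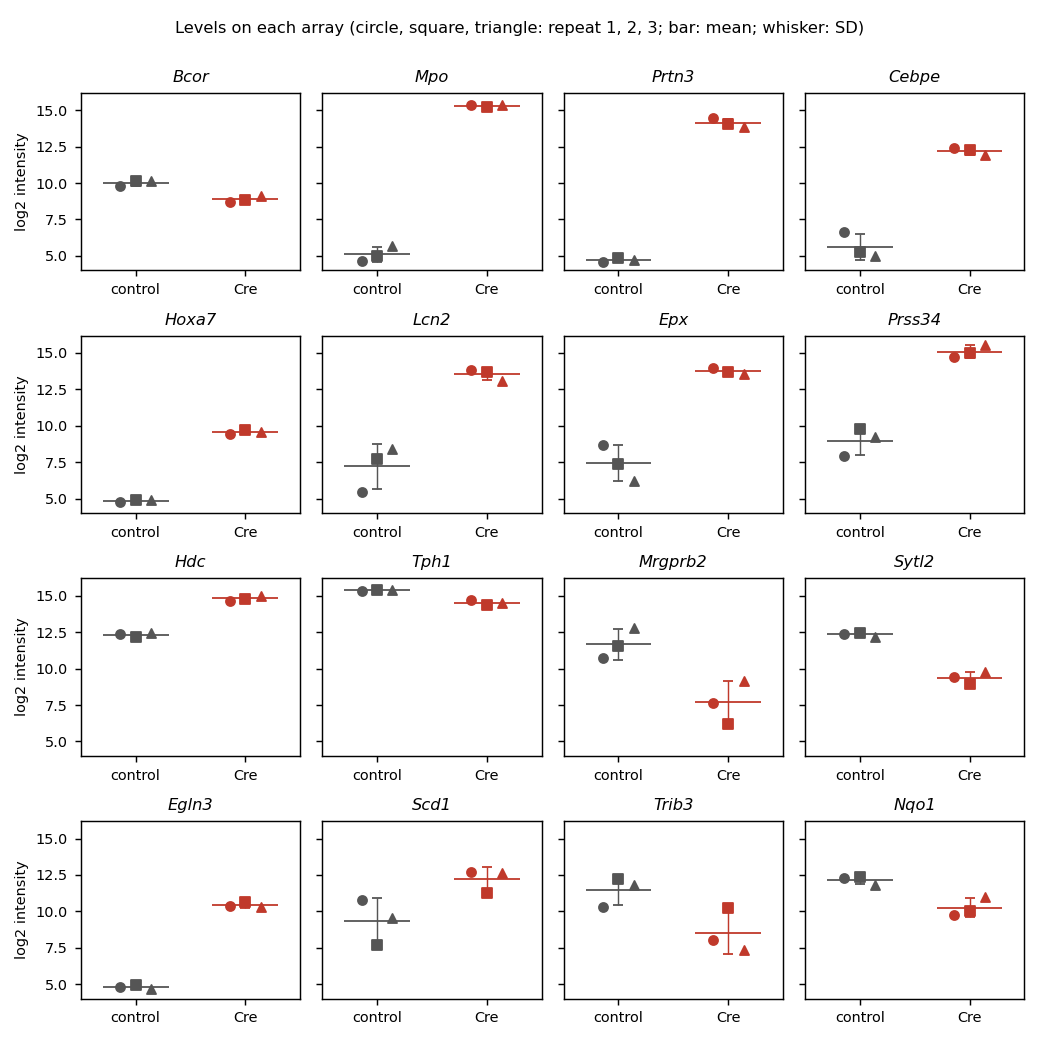
Log2 normalised level of 16 genes on each array (circle, square and triangle for repeats 1, 2 and 3), with bars at the mean and whiskers of 1 SD (n = 3 per arm). Mpo and Cebpe, each detected on 1 control array, stand apart between the arms by 10.21 and 6.60 log2 units and Prtn3, detected on none, by at least 8.67, while Bcor falls by 1.13.

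Most measured calprotectin, stefin A and antiprotease genes rose as well, with differences on the list from 0.38 to 5.16. Of 13 listed calprotectin, stefin A and antiprotease genes, 12 were measured, 9 rose and none fell, with a median difference of 4.39 (1 rise by the authors' values). S100a8 and S100a9 encode the subunits of calprotectin, a metal-binding antimicrobial protein. The S100a8 level was 9.65, 11.65 and 12.44 in controls and 15.46, 15.40 and 15.34 with Cre, without overlap. Levels of S100a9 were 8.15, 9.68 and 10.91 on the control arrays and 14.51, 14.52 and 14.07 on the Cre arrays. Their control levels were spread widely, with control 1 lowest in each, yet no Cre array reached down to a control. Stfa1, of the cysteine protease inhibitors of the stefin A family, rose by 5.16 ± 0.61. Members of that family are near-identical, and how far a probe reads its neighbours is uncertain. Slpi, the leukocyte protease inhibitor, was already high. Slpi stood at 10.61, 12.45 and 11.95 on controls 1 to 3 and at 14.91, 15.50 and 15.17 on Cre 1 to 3. It rose by 3.53 ± 0.42 (adjusted p 0.00107). Lysozyme did not pass: Lyz2 stood at 10.66, 13.37 and 11.42 in controls and at 13.52, 13.07 and 13.36 with Cre, and control 2 lay within the Cre range (adjusted p 0.112, and 0.00191 without control 2).

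Among 33 listed granulocyte surface receptor genes, 25 were measured, 12 rose and 2 fell, and the median difference was 1.49 (3 rises and no fall by the authors' values). Cxcr4, the receptor that retains granulocytes in marrow, had the smallest p of them. Control arrays gave Cxcr4 levels of 6.14, 6.42 and 6.19, and Cre arrays gave 10.83, 11.07 and 11.13. Csf3r, the G-CSF receptor gene, was detected on 1 control array and on every Cre array. Csf3r measured 5.04, 5.35 and 5.50 on the control arrays and 9.40, 9.39 and 8.44 on the Cre arrays, all above the controls. Cxcr2, the receptor that draws neutrophils into blood, was undetected in controls and at least 7.17-fold higher. Itgb2, the common chain of leukocyte beta-2 integrins, rose by 2.64 ± 0.17, and its partner chain Itgal by 2.48 ± 0.27. Trem3, an activating receptor of myeloid cells, was at least 53.8-fold higher. The 2 falls were in Csf2rb and Csf2rb2, the paralogous chains of the IL-3 and GM-CSF receptors, at −0.88 ± 0.23 and −0.71 ± 0.15 (adjusted p 0.0326 and 0.0151). Their probes may not separate the copies, and the count of falls was 1 without control 1 and 0 without control 2 or control 3.

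Transcription factor genes of the granulocyte branch were among the genes that rose. Of 34 listed myeloid factors, 27 were measured, 11 rose and 2 fell, with a median of 0.21 (3 rises and no fall by the authors' values). Cebpe, the factor required for secondary granules, was detected on control 1 only among the controls. The Cebpe level was 6.64, 5.25 and 4.96 in controls and 12.42, 12.29 and 11.92 with Cre, without overlap. The difference was 6.60 ± 0.41 (adjusted p 4.41e-05), and 3 further probes rose by 5.15 to 6.18. Cebpa, which opens the granulocyte and monocyte branch, was undetected in controls and at least 5.18-fold higher. Gfi1, a repressor needed for neutrophil development, moved from an already high level. Levels of Gfi1 were 9.75, 9.77 and 9.70 on the control arrays and 11.27, 11.10 and 10.83 on the Cre arrays. Irf8, a factor of monocytes and dendritic cells, was at least 2.25-fold higher. Id1, an inhibitor of helix-loop-helix factors, rose by 4.93 ± 0.42, while its relative Id2 fell by 1.00 ± 0.15 on the log2 scale. The falls on the list numbered 5 with the repeat block, 4 without Cre 3 and 1 without control 2, control 3 or Cre 1.

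Of the 11 Hoxa genes listed, 4 were measured and 3 rose, with a median of 2.60, or 1.98 with undetected genes at their bounds. All 3 stood at 24 throughout in the authors' values. Hoxa genes pattern the body axis and mark early myeloid progenitors, and they are textbook targets of Polycomb repression. Hoxa7 stood at 4.76, 4.94 and 4.88 on controls 1 to 3 and at 9.42, 9.74 and 9.59 on Cre 1 to 3. No control array detected Hoxa7, Hoxa5 or Hoxa9, and the rises were at least 17.5-fold, 6.19-fold and 2.51-fold. Hoxa13, the measured member at the other end of the cluster, was at 5.60, 5.66 and 5.67 in controls and at 5.23, 5.30 and 5.48 with Cre (adjusted p 0.179). Among 13 other Hox genes and cofactors measured, 2 rose and 1 fell, beside 11.3% of all genes each way. Hoxb4 rose by 1.43 ± 0.21, and Meis1, the DNA-binding partner of Hoxa proteins, fell by 0.82 ± 0.15 on the log2 scale (adjusted p 0.00855).

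Eosinophil granule genes rose from controls that differed widely among themselves. Of 15 listed, 7 were measured, 6 rose and none fell, and the median was 4.25. All 6 stood at 24 on every BM array in the authors' values. Epx encodes eosinophil peroxidase. Control arrays gave Epx levels of 8.69, 7.36 and 6.23, and Cre arrays gave 13.96, 13.69 and 13.56. Prg2 encodes major basic protein, the cytotoxic core of eosinophil granules. Prg2 measured 13.43, 11.61 and 10.57 on the control arrays and 15.47, 15.67 and 15.60 on the Cre arrays, all above the controls. Prg3 encodes its homologue. The Prg3 level was 8.20, 6.57 and 5.91 in controls and 13.65, 13.43 and 13.39 with Cre, without overlap. In all 3 genes control 1 was the highest control and control 3 the lowest, while the Cre arrays lay close together. Relative levels over the list were 1.17, −0.28 and −0.89 on the control arrays and 4.57, 4.40 and 4.48 on the Cre arrays. Alox15, a lipoxygenase of eosinophils and macrophages, rose by 4.25 ± 0.34. Il5ra, the receptor for the eosinophil growth factor IL-5, gave 1.01 ± 0.32 (adjusted p 0.058, and 0.00661 with the repeat block). Ear6, an eosinophil ribonuclease, rose by 5.45 ± 0.67, but this gene family is near-identical and the member read is uncertain.

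Mast cell and basophil protease genes did not move together. Of 16 listed, 9 were measured, 3 rose and 3 fell (2 and 0 by the authors' values), beside 11.3% of all genes each way. Mcpt8 and Prss34 mark basophils. Levels of Mcpt8 were 10.65, 11.19 and 10.70 on the control arrays and 13.69, 13.95 and 14.06 on the Cre arrays. Prss34 stood at 7.92, 9.77 and 9.21 on controls 1 to 3 and at 14.73, 15.01 and 15.56 on Cre 1 to 3. They rose by 3.05 ± 0.17 and 6.14 ± 0.44 (adjusted p 2.96e-05 and 8.6e-05). Tpsb2, a tryptase of connective tissue mast cells, fell. Control arrays gave Tpsb2 levels of 14.64, 15.48 and 15.53, and Cre arrays gave 13.99, 13.86 and 14.17. The difference was −1.21 ± 0.22 (adjusted p 0.008), with Tpsab1 as a close paralogue that its probe may also read. Cpa3, the mast cell carboxypeptidase gene, stayed at the top of the scale in both arms, at 15.64, 15.61 and 15.64 in controls and 15.56, 15.53 and 15.60 with Cre (adjusted p 0.421). The list had 1 fall without control 2 or without control 3, and 1 with all 12 arrays in the fit.

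Receptor and signalling genes of mast cells included falls and no rise. Of 27 listed, 21 were measured, none rose and 14 fell, with a median of −0.68 (4 falls by the authors' values). Mrgprb2, the receptor through which basic peptides trigger mast cells, had the largest fitted fall of any gene and was detected on every array. Mrgprb2 measured 10.70, 11.53 and 12.80 on the control arrays and 7.65, 6.22 and 9.15 on the Cre arrays, all below the controls. The arms did not overlap, but each spanned 2 units or more (difference −4.01 ± 0.75, adjusted p 0.00843). Mitf, the mast cell lineage factor, was steadier. The Mitf level was 7.60, 7.72 and 7.59 in controls and 5.83, 5.51 and 6.42 with Cre, without overlap. It fell by 1.71 ± 0.24 on the log2 scale. Ms4a2, the beta chain of the IgE receptor, stood at 13.79, 13.58 and 13.60 in controls and at 12.77, 12.88 and 13.05 with Cre (adjusted p 0.00238). Kit, the receptor for SCF, fell by 0.78 ± 0.17 on the log2 scale (adjusted p 0.0155), but missed the threshold without control 2 at 0.0555, control 3 at 0.068 or Cre 1 at 0.0533 (each an adjusted p). The count of falls was 9 without control 1, control 2 or Cre 1, 8 without control 3 and 16 without Cre 3. Cre 2 was the lowest Cre array for 15 of the 21 genes, against 38.3% of all genes, and Cre 3 the highest for 19, against 43.8%.

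Enzymes that make mast cell mediators moved in both directions. Of 22 listed amine and eicosanoid genes, 12 were measured, 3 rose and 7 fell, with a median of −0.83 (1 and 3 by the authors' values). Alox15, given above with the eosinophil genes, was 1 of the 3 rises. Hdc makes histamine. Levels of Hdc were 12.39, 12.20 and 12.41 on the control arrays and 14.66, 14.78 and 15.01 on the Cre arrays. It rose by 2.48 ± 0.11 (adjusted p 1.14e-05), and a second probe by 3.49. The serotonin enzymes went the other way. Tph1, the rate-limiting step, stood at 15.30, 15.40 and 15.40 in controls and at 14.68, 14.34 and 14.48 with Cre. Ddc, the decarboxylase of the next step, fell by 1.38 ± 0.26, and Maob, which degrades amines, by 1.35 ± 0.20, both on the log2 scale. Alox5, which starts leukotriene synthesis, was lower on every Cre array. Alox5 stood at 14.77, 14.68 and 14.71 on controls 1 to 3 and at 13.92, 13.56 and 13.34 on Cre 1 to 3. Hpgds, the prostaglandin D synthase of mast cells, fell by 1.78 ± 0.28 on the log2 scale (adjusted p 0.00392), and Tbxas1, the thromboxane synthase, gave −0.79 ± 0.13. Slc6a4, the serotonin transporter, rose by 1.67 ± 0.42 (adjusted p 0.0277), a call lost without control 1 at 0.0943, control 2 at 0.0884 or Cre 1 at 0.0604 (each an adjusted p).

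Genes of granule exocytosis were measured for 22 of 28 listed, of which 2 rose and 7 fell (median −0.22), beside 11.3% of all genes each way. Sytl2, a Rab27 effector that tethers granules to the membrane, was lower on every Cre array. Control arrays gave Sytl2 levels of 12.39, 12.46 and 12.20, and Cre arrays gave 9.42, 8.95 and 9.78. The difference was −2.97 ± 0.21 (adjusted p 8.13e-05), and a second probe gave −1.44. Sytl3, another Rab27 effector, fell by 0.78 ± 0.14 on the log2 scale. Rab27a itself rose by 1.06 ± 0.13 (adjusted p 0.00114), while its paralogue Rab27b fell by 1.03 ± 0.23 on the log2 scale, a call lost without control 3 (adjusted p 0.0678) and with all 12 arrays in the fit (adjusted p 0.139). Stx3, a syntaxin of the plasma membrane, rose by 0.66 ± 0.14. The falls numbered 4 without control 3 or Cre 1 and 2 with all 12 arrays.

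Of 22 mast cell cytokine and growth factor genes listed, 16 were measured, 4 rose and none fell. Hgf, hepatocyte growth factor, was detected on 2 control arrays and on every Cre array. Hgf measured 5.09, 6.25 and 6.09 on the control arrays and 10.16, 11.15 and 10.68 on the Cre arrays, all above the controls. Ccl3 and Ccl9, chemokines that draw monocytes and other leukocytes, rose by 3.08 ± 0.53 and 2.65 ± 0.33. Cxcl2, a neutrophil chemokine, was undetected in controls and at least 3.33-fold higher. Tnf was at 9.70, 10.41 and 9.23 in controls and at 9.56, 8.73 and 8.15 with Cre and did not pass (adjusted p 0.127, and 0.0352 with the repeat block). With the repeat block 4 genes of this list fell.

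Cytokine receptor genes split, with 5 of 24 measured rising and 7 falling, beside 11.3% of all genes each way. Ifngr1, a chain of the interferon gamma receptor, was higher on every Cre array. The Ifngr1 level was 8.13, 8.22 and 8.21 in controls and 9.67, 10.20 and 10.02 with Cre, without overlap. Tnfrsf1a, the main TNF receptor, was undetected in controls and at least 2.97-fold higher. Tgfbr1, the TGF-beta type I receptor, fell. Levels of Tgfbr1 were 14.48, 14.67 and 14.63 on the control arrays and 13.34, 12.73 and 13.67 on the Cre arrays. Il10ra, the IL-10 receptor chain, fell by 1.19 ± 0.21, and Crlf2, the TSLP receptor chain, by 1.09 ± 0.17, both on the log2 scale. The rises numbered 3 without control 3, and the falls 3 without control 2 or control 3.

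Markers of other blood lineages that a marrow culture can hold also moved. In the monocyte and macrophage list 6 of 22 measured genes rose and none fell (30 listed, median 0.68). Adgre1, which encodes the macrophage antigen F4/80, was detected throughout. Adgre1 stood at 9.67, 10.34 and 9.57 on controls 1 to 3 and at 11.49, 11.92 and 12.09 on Cre 1 to 3. Arg1, the arginase of alternatively activated macrophages, ran from 5.20 to 8.66 in the controls, rose by 5.19 ± 0.77 and had its lowest Cre level above every control. Axl, a receptor for apoptotic cells, was undetected in controls and at least 9.91-fold higher, and Chil4, a chitinase-like protein, rose by 4.60 ± 0.59. C1qa, a defining complement gene of resident macrophages, was detected on 1 Cre array and on no control. Control 2 was the highest control for 19 of the 22 genes, against 33.0% of all genes, and control 1 the lowest for 17, against 33.1%. Relative levels were −0.80, 0.79 and 0.01 on the control arrays and 1.08, 1.07 and 1.31 on the Cre arrays. The part of such cells in the other results was not tested.

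H2-Aa, H2-Ab1 and H2-Eb1, chains of MHC class II, were detected on Cre arrays only. Of 18 listed antigen presentation and dendritic cell genes, 8 were measured, 6 rose and 1 fell, with a median of 1.16, or 0.66 with undetected genes at their bounds. Control arrays gave H2-Aa levels of 4.81, 5.06 and 4.65, and Cre arrays gave 6.92, 7.67 and 7.65. It was at least 3.9-fold higher (adjusted p 0.000328). Cd74, the invariant chain that escorts class II, rose by 1.97 ± 0.35. Class II genes belong to a family of similar sequence, so the allele or member read is uncertain. The single fall on the list, H2-DMb1 at −0.64 ± 0.15 (adjusted p 0.0232), missed the threshold without control 1 at 0.0925, control 2 at 0.0833, Cre 1 at 0.0977 or Cre 2 at 0.0598 (each an adjusted p).

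Erythroid genes rose for 6 of 11 measured (22 listed, median 0.99), and 3 rose without control 3. Klf1, the erythroid master factor, was detected on all arrays. Klf1 measured 5.77, 5.81 and 5.55 on the control arrays and 8.41, 8.81 and 9.31 on the Cre arrays, all above the controls. Car1, carbonic anhydrase of red cells, was undetected in controls and at least 10.4-fold higher. Alas2, the erythroid enzyme of heme synthesis, was undetected on all 6 arrays. Alas1, its form in other cells, rose. The Alas1 level was 10.66, 11.21 and 10.84 in controls and 13.72, 13.44 and 13.31 with Cre, without overlap. Slc25a37, which brings iron into mitochondria, rose by 1.12 ± 0.16. Over the heme and iron list 3 of 19 measured genes rose and 3 fell, beside 11.3% of all genes each way, against 5 rises with the repeat block and 1 fall without Cre 1. Hmox1, which degrades heme, stood at 9.51, 10.46 and 9.53 in controls and at 7.79, 8.43 and 8.83 with Cre (adjusted p 0.0181, and 0.0625 without Cre 1).

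Of 18 measured megakaryocyte genes 3 rose and 5 fell (median −0.05), beside 11.3% of all genes each way. Differences on the list ran from −1.60 to 1.56, and the falls numbered 3 without control 1 and 2 without control 3. The markers Pf4 and Gp9 were detected on all 6 arrays. Vwf, von Willebrand factor, was lower on every Cre array. Levels of Vwf were 11.19, 11.40 and 10.98 on the control arrays and 9.54, 9.29 and 9.94 on the Cre arrays. Rgs18, a regulator of platelet G-protein signalling, fell by 1.23 ± 0.16 on the log2 scale. Of 21 listed stromal and endothelial genes 6 were measured, 4 rose and 2 fell. Igfbp7, a secreted growth factor-binding protein, went from 4.90, 5.90 and 5.81 to 11.01, 11.35 and 11.07, and Acta2, smooth muscle actin, from 4.65, 5.70 and 5.09 to 9.78, 9.93 and 10.70. Tek, an angiopoietin receptor of endothelium and stem cells, fell by 2.63 ± 0.20 on the log2 scale. The defining genes Col1a1, Col3a1 and Cdh5 were undetected on all 6 arrays, and Cxcl12 was detected on 1 control array only. The falls numbered 1 without control 3 or Cre 1. Of 13 listed B cell genes 3 were measured and 1 rose, Igll1, a surrogate light chain gene of B cell precursors, undetected in controls and at least 1.48-fold higher. Of 17 listed T and NK cell genes 3 were measured and 1 rose, Thy1, given below with the progenitor markers (median 1.83). The defining genes Ms4a1, Pax5, Cd3e, Cd3g, Cd2 and Klrd1 were undetected on all 6 arrays.

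Stem and progenitor genes were measured for 17 of 27 listed, with 4 rises and 6 falls and a median of −0.25, beside 11.3% of all genes each way. Mecom, a stem cell factor gene, was detected on the controls and on no Cre array. Mecom stood at 6.61, 6.13 and 6.06 on controls 1 to 3 and at 5.04, 5.19 and 4.94 on Cre 1 to 3. It was at least 1.88-fold lower (adjusted p 0.00407). Cd34, the progenitor antigen used to sort the other samples, fell. Control arrays gave Cd34 levels of 10.53, 10.46 and 10.24, and Cre arrays gave 9.68, 8.93 and 9.33. Cd93, a surface receptor of early progenitors, fell by 0.95 ± 0.19 on the log2 scale. Cd27 and Thy1, surface markers that subdivide progenitors, were undetected in controls and at least 4.52-fold and 6.08-fold higher, and Prom1, which encodes CD133, was at least 3.2-fold higher. Tal1, shared by stem cells, mast cells and erythroid cells, fell by 0.99 ± 0.15 on the log2 scale.

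**Figure D3:**
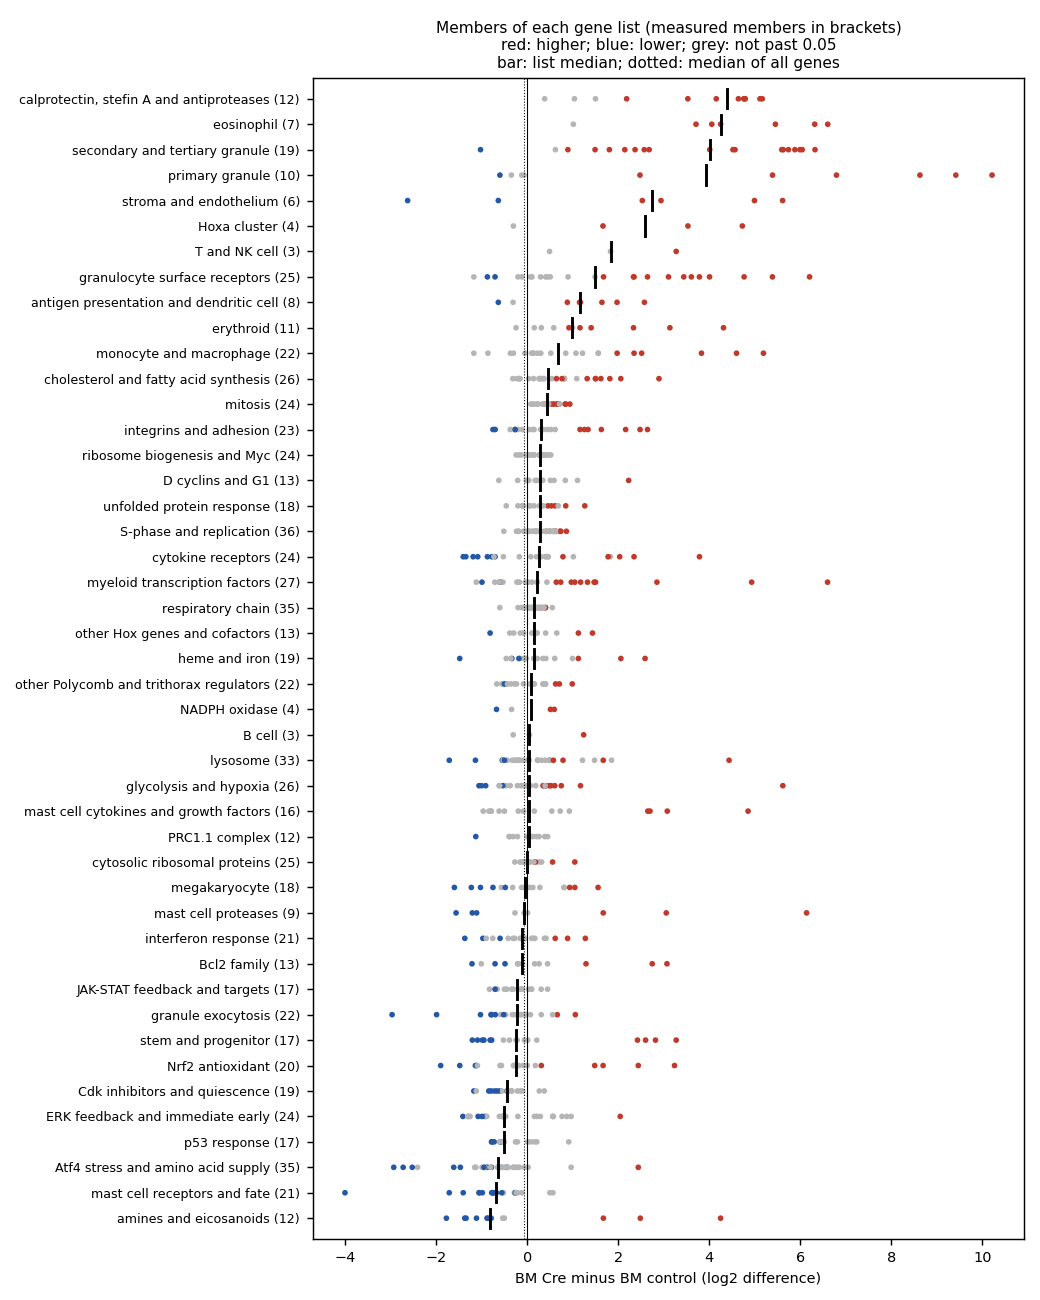
Log2 difference, Cre minus control, of the measured members of each gene list (points, coloured where called; bars at the list median, dotted line at the median of all genes). The granule, calprotectin and eosinophil lists lie to the right, and mast cell receptors to the left.

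Cell cycle genes shifted by less than 1 log2 unit as lists, and the counts turned on single arrays. Of 36 measured S-phase genes 5 rose and none fell (median 0.27), beside 11.3% of all genes each way. That count was 0 without control 1, control 2, Cre 1 or Cre 2, 1 without control 3 and 21 without Cre 3. It was also 0 with all 12 arrays and by the authors' values. Of 24 measured mitosis genes 10 rose and none fell (median 0.42). The rises numbered 5 without control 2, 4 without control 3, 3 without Cre 1 and 6 without Cre 2. They numbered 1 with all 12 arrays or by the authors' values. Aurka, a spindle kinase, had the smallest p of them. Aurka measured 10.46, 10.37 and 10.52 on the control arrays and 11.46, 11.61 and 11.09 on the Cre arrays, all above the controls. Its adjusted p was 0.00498, and 0.232 with all 12 arrays. E2f2, an activator of S-phase genes, was the exception in size. The E2f2 level was 8.67, 8.66 and 8.72 in controls and 10.95, 11.00 and 10.78 with Cre, without overlap. It rose by 2.23 ± 0.13 (adjusted p 3.28e-05) and was the only call among 13 D cyclin and G1 genes, which numbered 6 without Cre 3 and 2 without control 2 or with the repeat block.

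No inhibitor of the cycle rose. Of 19 measured Cdk inhibitor and quiescence genes none rose and 7 fell (median −0.44), beside 11.3% of all genes each way. But 2 or 3 fell without any 1 array other than Cre 3, 4 with all 12 arrays and 0 by the authors' values. Cdkn1a, the p21 inhibitor and a p53 target, held with each array left out but not by the authors' values (adjusted p 0.0973). Levels of Cdkn1a were 13.53, 13.85 and 13.52 on the control arrays and 13.17, 13.01 and 12.93 on the Cre arrays. It fell by 0.60 ± 0.12 on the log2 scale (adjusted p 0.0106). In the p53 response list 5 of 17 measured genes fell and none rose (median −0.51), beside 11.3% of all genes each way. The falls numbered 1 without control 2, control 3, Cre 1 or Cre 2, 9 without Cre 3 and 0 by the authors' values.

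Ribosome biogenesis genes showed how far Cre 3 stood from its group. For 24 of the 24 measured genes it was the lowest Cre array, against 3773 of all 9729 genes (38.8%), and Cre 2 was the highest for 22, against 36.2% of all genes. Relative levels were 0.00, 0.29 and −0.29 on the control arrays and 0.56, 0.82 and −0.67 on the Cre arrays. One gene rose, Npm1, a nucleolar chaperone, by 0.36 ± 0.11 (adjusted p 0.0466), and missed the threshold without control 1 at 0.106, control 2 at 0.134, control 3 at 0.119, Cre 1 at 0.161 or Cre 2 at 0.107 (each an adjusted p). Without Cre 3, 19 of the 24 rose, and with the block 2 did. Of 35 measured respiratory chain genes 4 rose, a share close to the 11.3% of all genes that rose, against none without Cre 1 or any 1 control, 1 without Cre 2 and 7 without Cre 3 or with the block. The S-phase list had Cre 3 lowest for 35 of 36 genes and the D cyclin and G1 list for 13 of 13.

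**Figure D4:**
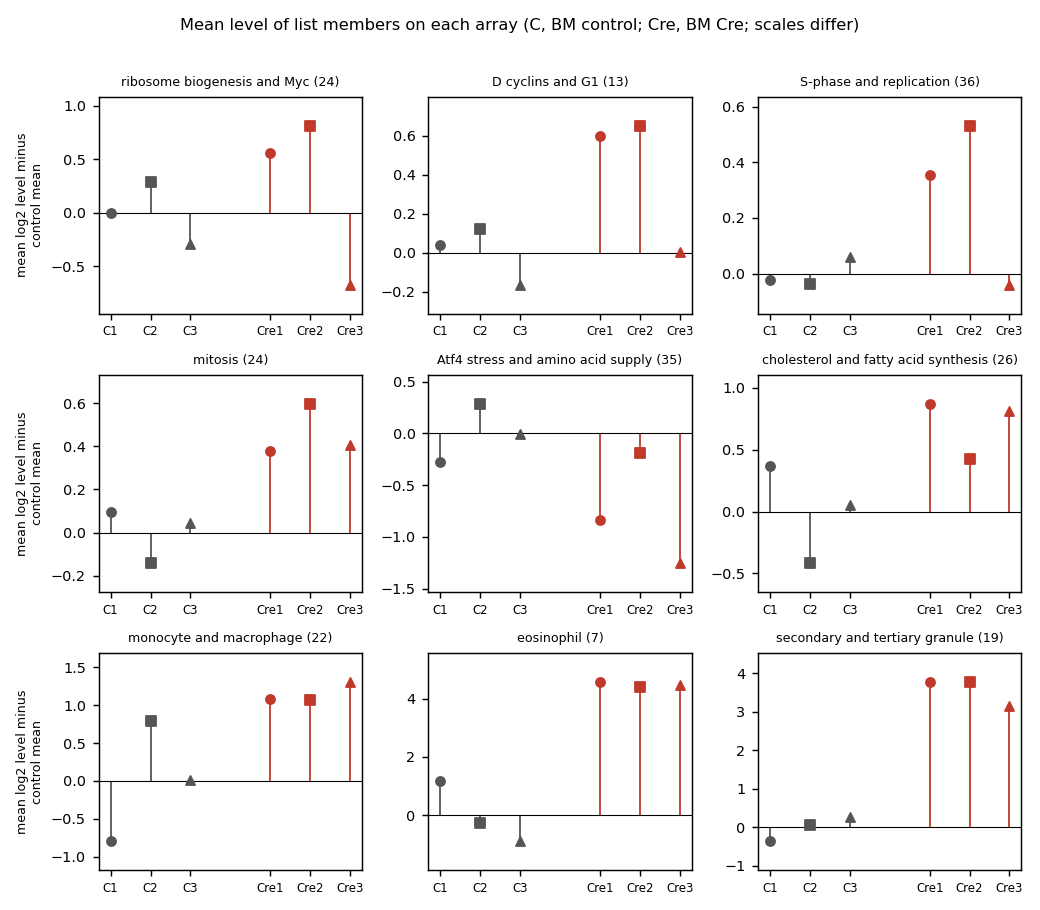
Mean level of each of 9 gene lists on each array, in log2 units relative to the mean of the control arrays (circle, square and triangle for repeats 1, 2 and 3; scales differ between panels). Ribosome biogenesis drops on Cre 3, from 0.82 on Cre 2 to −0.67, while the secondary granule list runs from 3.16 to 3.78 over the Cre arrays.

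Glycolysis and hypoxia genes moved in both directions. Of 26 measured genes 8 rose and 4 fell (median 0.04), beside 11.3% of all genes each way. Egln3, a prolyl hydroxylase that marks hypoxia-inducible factors for destruction, went from undetected to high. Egln3 stood at 4.81, 4.93 and 4.68 on controls 1 to 3 and at 10.37, 10.61 and 10.27 on Cre 1 to 3. The rise was at least 31.3-fold (adjusted p 1.15e-06). Pgk1, a glycolytic kinase, rose by 0.60 ± 0.09, and Pfkp, the platelet form of phosphofructokinase, fell by 0.91 ± 0.15 on the log2 scale. P4ha1, a collagen prolyl hydroxylase induced by hypoxia, fell by 1.06 ± 0.20 on the log2 scale. The rises numbered 3 without control 1 or Cre 1, 4 without control 3 or Cre 2 and 5 without control 2, and the falls 2 without control 2 or control 3.

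Genes of cholesterol and fatty acid synthesis rose for 10 of 26 measured and fell for none (34 listed, median 0.45). Elovl6, which elongates fatty acids, had the smallest p of them. Control arrays gave Elovl6 levels of 8.39, 7.91 and 8.51, and Cre arrays gave 10.58, 10.13 and 10.27. Pmvk, an early kinase of the mevalonate pathway, followed. Pmvk measured 7.80, 7.02 and 7.54 on the control arrays and 9.31, 8.98 and 9.51 on the Cre arrays, all above the controls. Scd2, a fatty acid desaturase, rose by 1.62 ± 0.33. Scd1, its liver and fat form, ran from 7.69 to 10.78 in controls and rose by 2.89 ± 0.73, a call lost without control 3 at 0.0787 or Cre 1 at 0.102 (each an adjusted p). Repeat 2 was the lowest array for 23 of the 26 genes in each arm, against 36.9% of all genes in controls and 38.3% with Cre. The count was 5 without control 3, 4 without Cre 1, 6 with all 12 arrays and 3 by the authors' values.

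Among targets of Atf4, the factor that answers amino acid shortage and endoplasmic reticulum stress, more genes fell than rose. Of 42 listed, 35 were measured, 1 rose and 10 fell, with a median of −0.65. Slc6a9, a glycine transporter, held its call with each array left out but not by the authors' values (adjusted p 0.0916). The Slc6a9 level was 12.28, 12.81 and 12.33 in controls and 10.60, 10.95 and 11.47 with Cre, without overlap. Trib3, a pseudokinase induced by Atf4, had the largest difference. Levels of Trib3 were 10.32, 12.24 and 11.84 on the control arrays and 8.01, 10.21 and 7.38 on the Cre arrays. In both arms repeat 2 was the highest array (difference −2.93 ± 0.75, adjusted p 0.0287), and the call was lost without control 2 at 0.0958, control 3 at 0.102 or Cre 1 at 0.105 (each an adjusted p). Nupr1, a stress-induced chromatin protein, showed the same order. Nupr1 stood at 10.55, 11.44 and 11.01 on controls 1 to 3 and at 8.30, 9.76 and 7.36 on Cre 1 to 3. Its adjusted p of 0.0149 became 0.0564, 0.0566 and 0.0595 without control 2, control 3 and Cre 1. Chac1, which degrades glutathione, stood at 11.28, 13.06 and 12.26 in controls and at 9.30, 11.68 and 8.37 with Cre. It gave an adjusted p of 0.0688, which was 0.00557 with the repeat block and 0.00433 without Cre 2. Slc7a11, the cystine importer, was the only gene of the list that rose. Control arrays gave Slc7a11 levels of 5.71, 6.58 and 5.33, and Cre arrays gave 8.01, 8.71 and 8.22. It rose by 2.44 ± 0.33 (adjusted p 0.0021), and 2 further probes by 0.95 and 1.20.

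Levels of the Atf4 list went in part with the repeat number. Control 2 was the highest control for 26 of 35 genes and Cre 2 the highest Cre array for 29, with Cre 3 the lowest for 28, against 33.0%, 36.2% and 38.8% of all genes. Relative levels were −0.28, 0.29 and −0.01 on the control arrays and −0.84, −0.19 and −1.25 on the Cre arrays. The count of falls was 18 with the repeat block, 19 without Cre 2 and 12 with all 12 arrays. It was 3 without control 2 or control 3, 2 without Cre 1 and 1 by the authors' values. With the block 2 genes rose. In the neighbouring unfolded protein response list 5 of 18 measured genes rose and none fell (median 0.28), beside 11.3% of all genes each way. Pdia4, a disulfide isomerase of the endoplasmic reticulum, rose by 0.84 ± 0.13. That count was 3 without any 1 array other than Cre 3, and 1 with all 12 arrays.

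Antioxidant targets of Nrf2 split, with 5 of 20 measured rising and 4 falling, beside 11.3% of all genes each way. Nqo1, a quinone reductase, fell. Nqo1 measured 12.27, 12.33 and 11.81 on the control arrays and 9.72, 10.01 and 10.97 on the Cre arrays, all below the controls. Txnrd1, thioredoxin reductase, fell by 1.11 ± 0.16, and Srxn1, sulfiredoxin, by 1.14 ± 0.22, both on the log2 scale. Mgst1, a microsomal glutathione transferase, rose. The Mgst1 level was 6.16, 8.04 and 6.47 in controls and 10.15, 9.98 and 10.24 with Cre, without overlap. Rises numbered 3 without control 2 or Cre 1 and 2 without control 3, and falls 7 without Cre 3. Of 33 measured lysosome genes 5 rose and 5 fell, beside 11.3% of all genes each way. Ctsh, cathepsin H, rose by 4.43 ± 0.39 and Neu1, a sialidase, by 0.79 ± 0.12, while Sqstm1, the autophagy receptor p62, fell by 1.14 ± 0.20 on the log2 scale. The lysosome rises ran from 2, without control 1 or control 3, to 9 without control 2, with 3 without Cre 1 and 10 with the block. Its falls ran from 2, without control 2, control 3 or Cre 1, to 10 without Cre 3, with 3 without control 1 or Cre 2. By the authors' values no lysosome gene was called.

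In the Bcl2 family 3 of 13 measured genes rose and 3 fell, beside 11.3% of all genes each way. Pmaip1, which encodes the death-promoting protein Noxa, rose. Levels of Pmaip1 were 6.38, 6.66 and 6.14 on the control arrays and 7.51, 7.64 and 7.90 on the Cre arrays. Bcl2a1d, of a family of near-identical survival genes that the probe may not separate, rose by 3.07 ± 0.68, a call lost without control 1 at 0.0562, control 3 at 0.0672 or Cre 1 at 0.0679 (each an adjusted p). The rises numbered 1 without control 1, control 3 or Cre 1, and no fall remained without Cre 1 or any 1 control. Of 24 measured ERK feedback and immediate early genes 1 rose and 5 fell (median −0.50), beside 11.3% of all genes each way. Spred1, an inhibitor of Ras signalling, fell. Spred1 stood at 12.34, 12.52 and 12.21 on controls 1 to 3 and at 11.16, 10.80 and 10.87 on Cre 1 to 3. Dusp2, a phosphatase of ERK, rose by 2.04 ± 0.23. The falls numbered 9 with the block and 3 without control 1 or control 2, and the rises 3 with the block and 4 without Cre 2. Of 21 measured interferon response genes 3 rose and 3 fell, beside 11.3% of all genes each way, with 1 fall without control 1, control 2, Cre 1 or Cre 2 and 8 without Cre 3. Ifitm3, an antiviral membrane protein, rose by 0.89 ± 0.13, and Usp18, which dampens interferon signalling, fell by 1.37 ± 0.23 on the log2 scale.

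Beyond the lists, Plac8, a small protein of myeloid cells, rose from a clear control level. Control arrays gave Plac8 levels of 7.52, 7.50 and 7.91, and Cre arrays gave 13.88, 14.08 and 13.95. Rnase12 and Pxylp1 were undetected in controls and at least 58-fold and 42.1-fold higher. Golm2, a Golgi membrane protein, fell. Golm2 measured 8.62, 8.53 and 9.12 on the control arrays and 5.68, 5.46 and 5.51 on the Cre arrays, all below the controls. Bace2, a membrane protease, fell by 2.65, Fxyd6, a regulator of the sodium pump, by 2.62, and Gpm6a, a membrane glycoprotein of neurons, by 2.53, all on the log2 scale. Lhfpl1 and Snurf were detected on the controls and on no Cre array, at least 4.72-fold and 3.95-fold lower. Of the 3769 genes with more than 1 kept probe, called genes had 1214 further probes, of which 1160 moved in the same direction, 736 were called that way and 2 were called the other way.

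Cultures from which CD34+ cells were sorted had received the same kinds of virus, and a fit over all 12 arrays tested whether the Cre effect differed between the populations. It differed for 587 genes (6.03%), with the effect higher in BM for 428 and lower for 159. Of the 2198 genes called in BM, 555 were among them. In CD34+ cells 36 genes rose and 16 fell in that fit, against 888 and 816 in BM. Its probes were those kept on the BM arrays, so genes detected only in CD34+ cells were not counted. Genes undetected on every CD34+ array did enter, and for these the difference sets the BM change against background. How many of the 587 were of this kind was not counted. The CD34+ arms hold 2 repeats of one marrow and 1 array of another, so their spread is not that of 3 marrows. With those repeats averaged 323 genes differed, 278 with the effect higher in BM and 45 with it lower, against 428 and 159.

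No CD34+ array detected Mpo or Hoxa7, so their effects there have no measured size, and those in BM passed the test of the difference (adjusted p 1.41e-09 and 1.82e-07). Gcnt2, a branching enzyme of surface glycans, rose in both populations, by 3.22 in BM and by 6.17 in CD34+ cells (adjusted p of the difference 0.00908, and 0.0789 with the repeats averaged). Mrgprb2 fell by 4.12 in BM and by 5.47 in CD34+ cells, and those effects were not shown to differ (adjusted p 0.587). The Bcor difference in CD34+ cells was −0.49 and did not pass (adjusted p 0.472), and the effect in BM minus that in CD34+ cells was −0.67 (adjusted p 0.377).

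**Figure D5:**
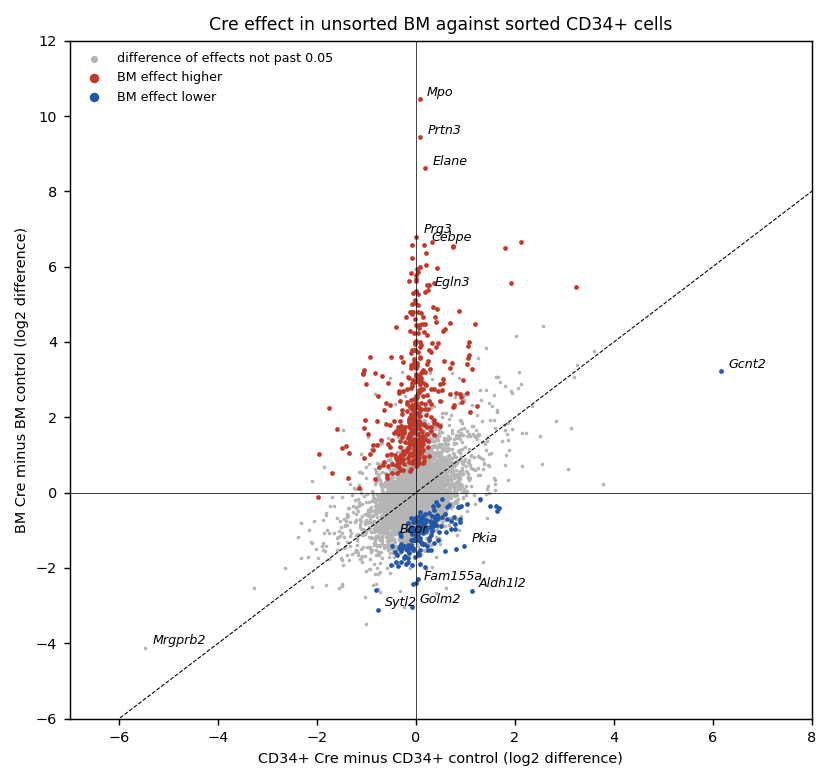
Cre minus control in BM (vertical) against Cre minus control in CD34+ cells (horizontal), both in log2 units from the fit over 12 arrays, with the 587 genes whose effects differ coloured and a dashed line where the effects are equal. Mpo, Prtn3 and Elane lie at the top, with a fitted BM effect above 8 and a CD34+ effect under 0.2, and none of the 3 was detected on all CD34+ arrays.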

How the data were processed

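Total RNA was labelled with biotin and hybridised to Illumina arrays, per the labels. Per the file headers, the scanner table that was deposited gives 2 columns per array. Its deposited intensity was linear, background-subtracted (−29.92718 to 60622.2 on the 6 BM arrays) and unscaled between arrays, and its deposited detection p-value was a rank among 936 negative controls. The authors' value table holds a linear intensity whose lowest entry is 24, and served as an alternative. Genes with a high scanner signal also stood at 24 there, and the method is not given in the sources used here. RMA appears in the submitters' processing notes, with no role.

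Signals were corrected by normexp from the detection p-values, given an offset of 16, log2 transformed and quantile normalised (limma 3.58.1, R 4.3.3). A detection p-value under 0.05 on 3 or more of the 6 arrays kept a probe (17823 probes, of which 2529 lacked a single symbol), and a gene was its brightest kept probe. Symbols came from the platform annotation: 34885 probes had 1, 18 several and 10378 none here. lmFit and eBayes with an intensity trend gave the differences, with 4 residual and 3.89 prior degrees of freedom. P-values were adjusted by Benjamini-Hochberg. The procedure was tested on simulated data with independent noise for each probe. That simulation held no array-wide shift or pairing, so it does not give the error rate here. The number of arrays limits the precision.

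A gene undetected on all 3 arrays of a group has a fold bound ("at least"), the other group's mean against, on each array, the higher of its own level and the lowest detected level. Since a member silent in one arm entered through the other, counts over 45 gene lists are descriptions, without a test of a list. Members and lists were chosen with earlier results of these data known. Lists share some genes, among them Alox15, Slc7a11, Csf3r and Itgb2, so their counts are not separate. Genes named are Bcor, Mpo, Prtn3, Cebpe, Hoxa7, the 20 largest changes each way, up to 6 list members past the threshold by smallest p (all members of small lists) and the 6 largest differences between populations. Cd33, Cd34, Cd93, Chac1, Csf2rb, Csf2rb2, Cxcr2, Kit, Scd1 and genes named for a promoter match alone were chosen after their values were seen. The 2 populations were compared in one model of 12 arrays normalised together, over the same probes.

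Same-numbered repeats deviated together from their group means (correlations 0.119, 0.403 and 0.352, against −0.362 to 0.0387 for other pairs). The labels state no pairing, and these correlations come from the same values as the results. Differences, SEs and adjusted p-values above are from the fit without pairing unless stated otherwise. A fit with the repeat number as a block was an alternative, beside other background, scaling, offset, filter, probe and array choices.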

Additional observations from a re-analysis of the deposited data

Results flagged for a closer look

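These 12 genes had the largest fitted differences between the Cre effect in unsorted BM and the Cre effect in CD34+ cells, 6 in each direction, in the model of all 12 arrays, and each passed the test of that difference. Values are fitted BM effect minus CD34+ effect in log2 units, and where a gene was undetected in a group they are taken against background and settle neither size nor order. Granule genes made up 5 of the 6 higher in BM: Mpo at 10.37, Prtn3 at 9.36, Elane at 8.43, Prg3 at 6.80 and Epx at 6.64. The other was Cebpe, the granulocyte factor, at 6.43. Mpo, Prtn3, Prg3, Epx and Cebpe were undetected on every CD34+ array, and Elane was detected on 1 CD34+ Cre array. Prtn3 and Elane were undetected on every BM control too. All 6 passed with the repeats of marrow number 2 averaged, and by the authors' values only Elane did (7.68), the other 5 standing at 24 on every BM array.

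Among the 6 lower in BM, Golm2 (−2.96) and Gpm6a (−2.36), membrane proteins, fell in BM and were undetected on the CD34+ arrays. Gcnt2 (−2.95), the glycan enzyme, rose in both populations, and rose more in CD34+ cells. Its CD34+ levels were 5.34, 5.16 and 6.18 in controls and 12.19, 12.15 and 10.86 with Cre. Aldh1l2 (−3.72), a mitochondrial folate enzyme, had a Cre effect of −2.60 in BM and of 1.12 in CD34+ cells (adjusted p of the difference 0.045). Within the 6 BM arrays alone its change was −2.77 (adjusted p 0.0529, and 0.00729 with the repeat block). Pkia (−2.39), an inhibitor of protein kinase A, had effects of −1.41 and 0.98 (adjusted p of the difference 0.029). Fam155a (−2.41) had effects of −2.41 in BM and 0.01 in CD34+ cells (adjusted p of the difference 0.0145). With the repeats averaged Golm2 and Gpm6a passed, and Aldh1l2, Gcnt2, Pkia and Fam155a did not (adjusted p 0.203, 0.0789, 0.14 and 0.0579). By the authors' values Gcnt2 alone of these 6 passed (−3.08, adjusted p 0.0338).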

How the results depend on the processing

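The count of genes changed in BM, 2198, ran from 1310 to 3545 with each array left out in turn, was 513 in the authors' value table and 2878 with the repeat number as a block, of which 2176 were calls of the fit without it. The block ended the call of no gene named here, and 8 genes named here were called only with it. The other alternatives (background, scaling, offset, filters, probe choice, trend, 12 arrays) gave 1704 to 2217. Bcor was called in each alternative (−1.25 to −0.96). In the authors' values 336 of the called genes stood at 24 on all 6 arrays, and 99 genes named here lost their call. The count of genes whose effect differed between populations, 587, was 186 in the authors' table, 323 with the repeats of marrow number 2 averaged (278 higher in BM and 45 lower), 639 with the block, 427 to 811 with 1 array left out and 509 to 603 otherwise. Signals near background make the sizes of 254 rises and 45 falls bounds, and a further 134 rises and 78 falls were detected on 1 or 2 arrays of the lower arm.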
